A study of Rattus norvegicus with 6 samples.

Results

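SOX genes encode transcription factors that bind the minor groove of DNA through a shared HMG box and bend it. They were followed here in rat neural stem/progenitor cells (NSPCs), multipotent cells that can give rise to neurons, astrocytes and oligodendrocytes. The set was chosen by name, with earlier results of these data known, as 10 SOX genes with known roles in neural tissue. They were Sox2, Sox3, Sox4, Sox5, Sox6, Sox8, Sox9, Sox10, Sox11 and Sox21. Of these, 8 had a row among the 17048 rows of the count tables, 7 had a count in at least 1 library, and 6 passed the filter on low counts that left 7729 rows for testing. Sox5 had counts in 1 library and Sox10 in none, so neither was tested, and Sox3 and Sox21 were not analysed here.

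RNA was measured in 6 libraries of wild-type cells kept for 24 h in a medium that maintains stemness, with 2 libraries on each of 3 carbon films. The films are labelled by conductivity, with “Low” and “Medium” standing in the study for the range of neural tissue and “High” for a level above it. All 3 groups share genotype, medium and time, there was no culture without a film, and the methods describe primary cells from embryonic rat telencephalon. By the paper, the films also differed in oxidation time, and their poly-D-lysine coat was adjusted to bring bound laminin to similar amounts. The labels do not say whether the 2 libraries of a film came from separate cultures, so p-values measure the spread between these libraries, which may be technical. No batch is given, so a film cannot be told apart from how its libraries were prepared.

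In neural tissue the SOX family is divided by sequence. The SOXB1 genes Sox2 and Sox3 keep progenitors in an undifferentiated state, and the SOXB2 gene Sox21 counteracts them. The SOXC genes Sox4 and Sox11 act in young neurons, the SOXD genes Sox5 and Sox6 modulate other SOX factors in progenitors and the oligodendrocyte lineage, and the SOXE genes Sox8, Sox9 and Sox10 act in gliogenesis, Sox9 also in neural stem cells and Sox10 in oligodendrocytes and neural crest.

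The promoter sequences below are shown for Sox2, the member whose level differed between all 3 films without overlap, and for Sox11, a member read at 0 in 2 libraries. Both are from RefSeq on the GRCr8 assembly and give the 250 bases before the annotated gene start, on the strand of the gene. The submitters' processing notes name rn6 for the counts, so the coordinates belong to the sequences alone. Sox2 lies at chr2:119464881-119465130 on the plus strand and Sox11 at chr6:49738795-49739044 on the minus strand. Capitals mark a GC box (GGGCGG) and a CCAAT box (CCAAT), both found on the opposite strand and so read here as their reverse complement.

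Sox2: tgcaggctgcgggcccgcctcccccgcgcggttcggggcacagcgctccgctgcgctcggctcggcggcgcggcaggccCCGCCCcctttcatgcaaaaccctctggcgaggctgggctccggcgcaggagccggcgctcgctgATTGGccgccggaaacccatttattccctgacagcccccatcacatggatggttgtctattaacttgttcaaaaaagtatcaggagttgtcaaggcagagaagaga
Sox11: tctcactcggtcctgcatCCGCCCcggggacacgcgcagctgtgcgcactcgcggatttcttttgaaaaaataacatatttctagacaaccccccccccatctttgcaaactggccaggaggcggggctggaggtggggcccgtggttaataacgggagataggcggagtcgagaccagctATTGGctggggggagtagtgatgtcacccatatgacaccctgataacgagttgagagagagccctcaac

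The promoter of Sox2 had a GC content of 64.4% and 23 CG pairs, and that of Sox11 had 56.8% and 14 CG pairs, against medians of 51.2% and 5 over all 33469 rat promoters of this length. The CCAAT match lay 106 to 102 bases before the start of Sox2 and 69 to 65 bases before that of Sox11, and 34.0% of all promoters held these letters on either strand. The GC box match lay 171 to 166 bases before the start of Sox2 and 232 to 227 bases before that of Sox11, with a match in 30.5% of all promoters. Neither window held the SOX core letters AACAAT or a TATA box (TATAAA), which occurred in 10.3% and 12.9% of all promoters.

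Total counts per library ran from 5124863 to 6213676, so that 3 counts corresponded to between 0.435 and 0.716 CPM (counts scaled to a common library size with the trimmed mean of M values, TMM). Of the 17048 rows, those with a count ran from 5355 in the first “Medium” library to 7809 in the second. A 0 in a library is therefore not a measure of absence. The share of counts on ribosomal RNA rows was 26.1% and 38.4% on “High” and between 7.16% and 13.0% on the other films. Replicate libraries differed far beyond counting noise, with a chi-square per degree of freedom between 149 and 195. Of 7 NSPC markers, 4 were tested, and their summed level was 2288 to 2475 CPM on “High”, 3537 to 3851 on “Medium” and 2863 to 4013 on “Low”, with Hes5, Prom1 and Msi1 at 0 in every library. The summed neuron markers reached at most 33.9 CPM (“Low”), those of microglia 7.10 (“Low”) and those of astrocytes 176 (“Medium”). In these bulk libraries, fewer cells of a type and less RNA per cell cannot be told apart.

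Sox2 and Sox9 were lower in both “High” libraries than in every library of the other films, by 2.38-fold and 1.96-fold between the group means. Sox2 was read 1303 and 1116 times on “High”, 3484 and 3377 times on “Medium” and 4869 and 4068 times on “Low”. On the CPM scale, this gave 268 and 266, then 598 and 554, then 705 and 683, so that no 2 films overlapped. The group levels of Sox2 were 267 ± 1.56 CPM on “High”, 576 ± 31.1 on “Medium” and 694 ± 16.0 on “Low” (SD, n = 2 each). Against “High”, the mean of “Low” and “Medium” was higher by 1.24 on the log2 scale (SE 0.27, 95% confidence interval 0.65 to 1.83), with an unadjusted p of 8.90e-04 and an adjusted p of 0.212 in edgeR's quasi-likelihood test. By the group levels above, the films differed by more than the replicates of this gene did. The test takes its spread in part from all rows, and Sox2 was not called after adjustment over them. With 4 libraries against 2, the smallest p an exact two-sided permutation test allows for 1 gene is 0.133. Without the ribosomal RNA rows the log2 difference was 1.23 (adjusted p = 0.194).

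The 2 pairwise comparisons share the “High” libraries. Sox2 was higher by 1.38 on the log2 scale on “Low” (95% confidence interval 0.72 to 2.03, unadjusted p = 8.94e-04, adjusted p = 0.346 in edgeR) and by 1.11 on “Medium” (0.45 to 1.76, unadjusted p = 0.00364, adjusted p = 0.539 in edgeR). Between “Low” and “Medium” the log2 difference of Sox2 was 0.27, with an interval from -0.38 to 0.91 (unadjusted p = 0.374 in edgeR).

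Sox9 was the most abundant SOX gene in counts. It was read 2882 and 2605 times on “High”, 5555 and 8480 times on “Medium” and 6557 and 8737 times on “Low”. Its levels were 594 and 621 CPM on “High”, 953 and 1391 on “Medium” and 950 and 1467 on “Low”. Both “High” libraries lay below the 4 others, while “Medium” and “Low” overlapped throughout. The group levels were 608 ± 19.6, 1172 ± 309 and 1208 ± 365 CPM (SD, n = 2 each), so the replicates of “Medium” and “Low” stood further apart than those of Sox2. Against “High”, Sox9 was higher by 0.97 on the log2 scale in “Low” and “Medium” together (SE 0.27, 95% confidence interval 0.37 to 1.57), with an unadjusted p of 0.00509 and an adjusted p of 0.517 in edgeR. The log2 difference was 0.99 for “Low” (adjusted p = 0.889 in edgeR) and 0.95 for “Medium” (adjusted p = 0.832 in edgeR). Between “Low” and “Medium” it was 0.04, with an interval from -0.62 to 0.71.

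**Figure D1:**
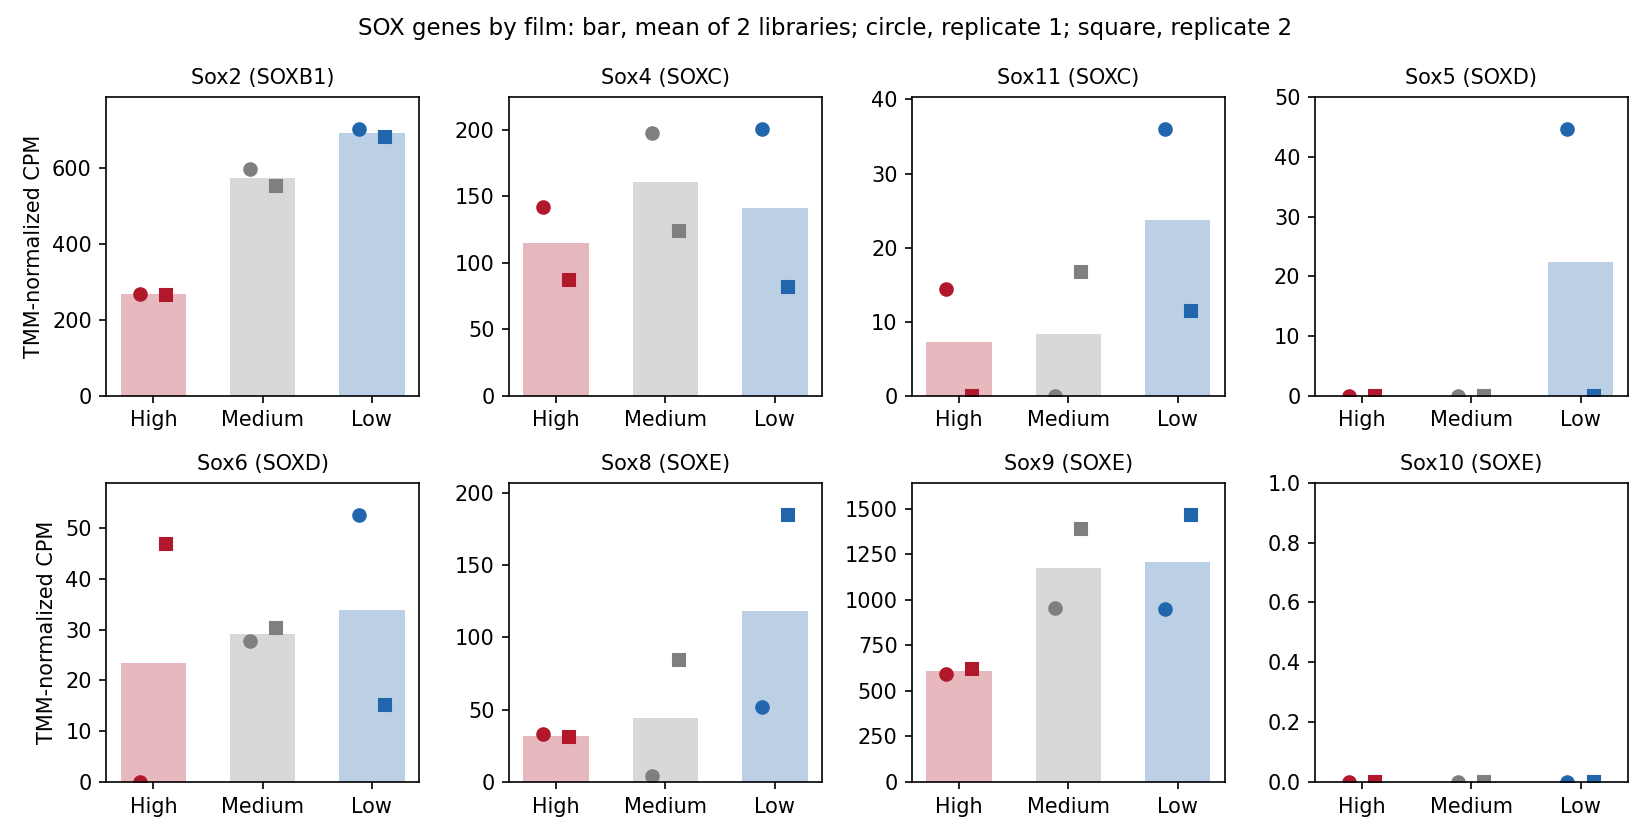
Level of the SOX genes that had a row, as TMM-scaled CPM on linear axes. Each panel shows 1 point per library, a bar at the group mean and colours for the films. Sox2 and Sox9 lie lower in both “High” libraries than in the 4 others, while the points of Sox4, Sox6, Sox8 and Sox11 overlap between films.

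The calls for these 2 genes differed between the tests. With DESeq2 on all rows both were called in “Low” and “Medium” against “High”, with an adjusted p of 3.20e-06 for Sox2 and 0.00248 for Sox9, and both were also called in each pairwise comparison against “High”. On the same 7729 rows as edgeR, DESeq2 also called both, with an adjusted p of 1.35e-07 and 0.00285, and limma-voom called neither. In edgeR with the filter set anew, Sox2 was called without the second “Medium” library (adjusted p = 0.0353) and Sox9 without the first “Low” library (adjusted p = 0.0133) or without the filter on low counts (adjusted p = 0.0438). On the 7729 rows, leaving out any library gave no call in edgeR, with an adjusted p of 0.127 for Sox2 without the second “Medium” library and 0.450 for Sox9 without the first “Low” library. Over all settings the adjusted p ran from 1.35e-07 to 0.888 for Sox2 and from 0.00248 to 0.99974 for Sox9. The direction of both genes against “High” was the same in every one of these fits. Scaling by total counts alone moved the median log2 difference of all rows from -0.12 to 0.26, Sox2 to 1.64 and Sox9 to 1.36.

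**Figure D2:**
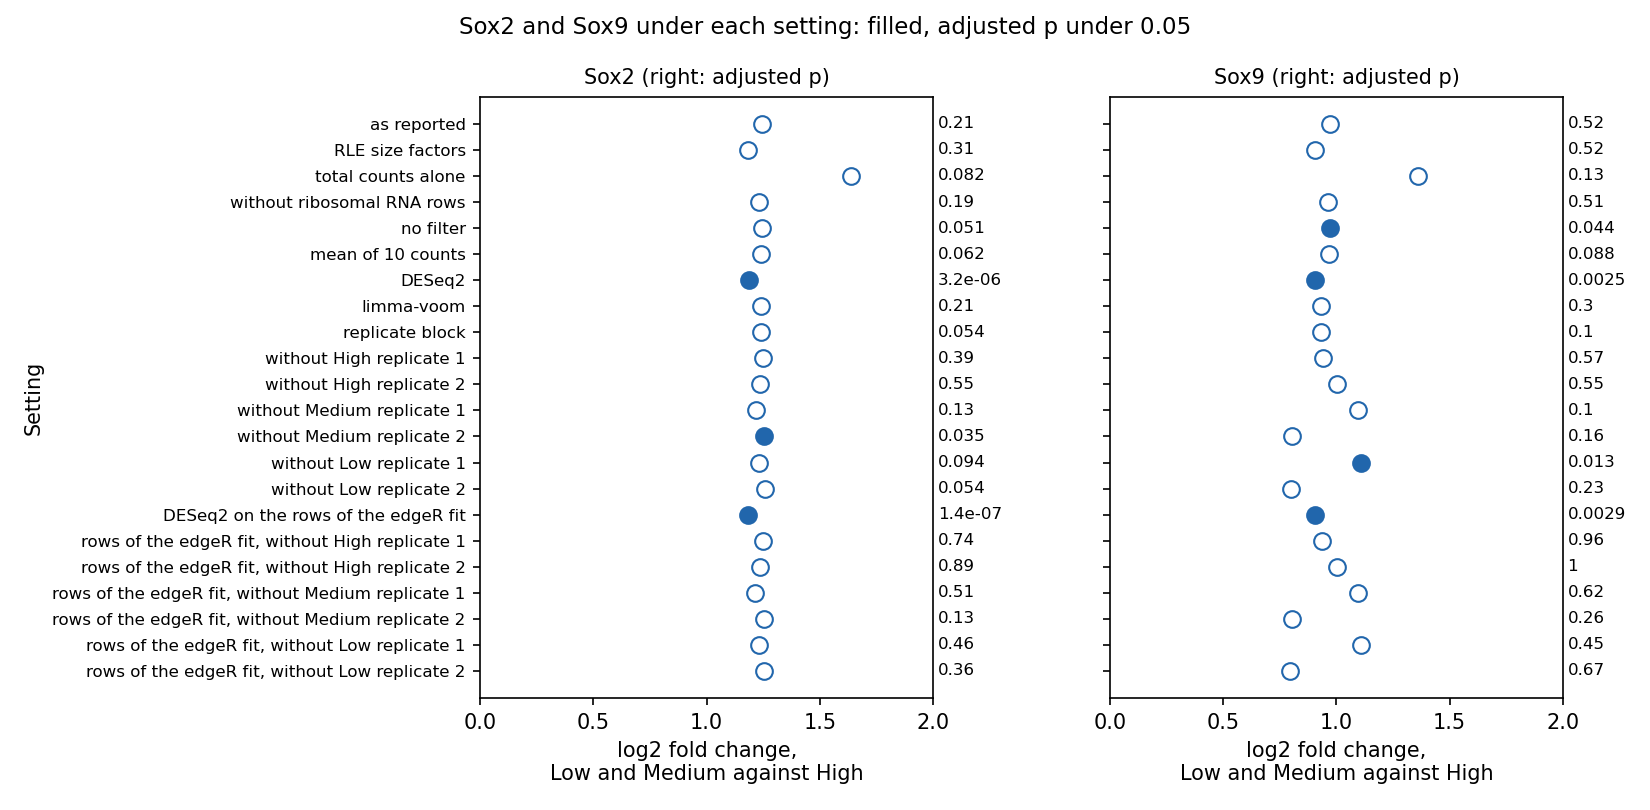
Log2 fold change of Sox2 and Sox9 in “Low” and “Medium” against “High” under each setting (rows of the edgeR fit: the 7729 rows tested), with points filled where the adjusted p was under 0.05. Sox2 ran from 1.18 to 1.64 and Sox9 from 0.80 to 1.36, all above 0.

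The other SOXE gene with counts, Sox8, acts beside Sox9 and Sox10 in glial development. It was read 160 and 129 times on “High”, 25 and 516 times on “Medium” and 360 and 1101 times on “Low”. Both “Low” libraries lay above both “High” libraries, but the “Medium” libraries lay on either side of them. The levels were 31.9 ± 1.55, 44.5 ± 56.8 and 118 ± 93.8 CPM (SD, n = 2 each). The log2 difference of “Low” and “Medium” against “High” was 1.19 with an interval from -1.81 to 4.19 (adjusted p = 0.967 in edgeR), and it was -0.51 without the second “Medium” library. Sox10, the SOXE factor of oligodendrocytes and neural crest, was at 0 in all 6 libraries, which allows at most 3 counts or 0.716 CPM in a library by counting error alone. Replicates differed far beyond counting error, so its level may have been higher.

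Sox4, the more abundant SOXC gene, was read 689 and 366 times on “High”, 1149 and 757 times on “Medium” and 1386 and 487 times on “Low”. These gave 142 and 87.3 CPM, 197 and 124 CPM, and 201 and 81.7 CPM, so the lowest library was on “Low” and the films overlapped. The log2 difference of “Low” and “Medium” against “High” was 0.39 with an interval from -0.98 to 1.77 (unadjusted p = 0.537 in edgeR). Sox11, its partner in the group, was read 70 and 0 times on “High”, 0 and 102 times on “Medium” and 249 and 68 times on “Low”. It was thus absent from the counts of 1 library each of “High” and “Medium”, and its log2 difference of 0.96 had an interval from -6.88 to 8.81. Leaving out the second “Medium” library turned it to -3.30.

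Of the SOXD genes, Sox6 was read 0 and 196 times on “High”, 162 and 185 times on “Medium” and 363 and 90 times on “Low”. The 2 “High” libraries lay on either side of both “Medium” libraries, and the log2 difference of “Low” and “Medium” was 0.42 with an interval from -4.98 to 5.83. Without the first “High” library it was -0.57, and without the first “Low” library it was -0.16. Sox5 was read 309 times in the first “Low” library and 0 times in the other 5, so it was seen in 1 library only and not tested. A difference in Sox4, Sox6, Sox8 or Sox11 of the size seen for Sox2 was not detectable at this spread.

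**Figure D3:**
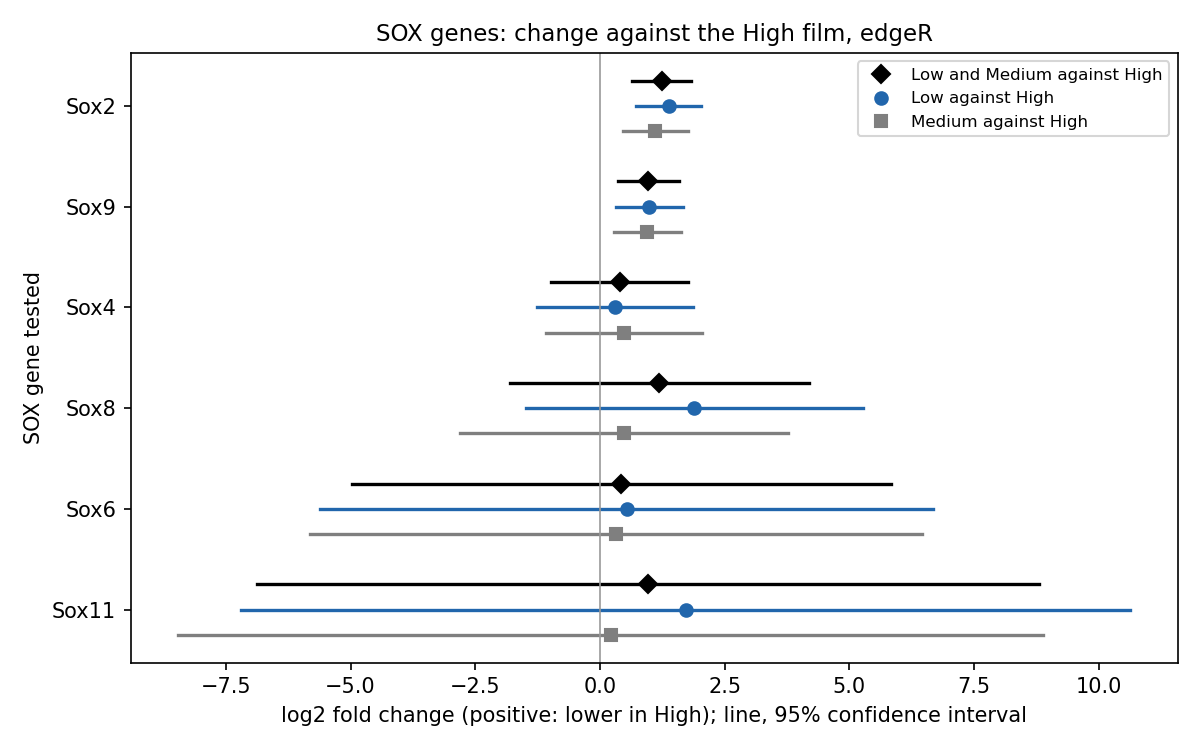
Log2 fold change of the 6 tested SOX genes against “High” with 95% confidence intervals from edgeR, for “Low” and “Medium” together and for each alone. The intervals of Sox2 and Sox9 lie above 0 and those of the 4 other genes include 0.

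Over the 6 tested genes, 0 passed an adjusted p of 0.05 by edgeR in “Low” and “Medium” against “High”, where 10 of 7729 rows (0.129%) did, 2 passed an unadjusted p of 0.05, and DESeq2 called 2. DESeq2 called 370 rows, 5.23% of those to which it gave an adjusted p, and 3.94% in “Low” and 4.24% in “Medium” against “High”. The 2 at the unadjusted threshold were Sox2 and Sox9, both higher, against 5.50% of all rows in either direction. In 2 of the 6, again Sox2 and Sox9, each “High” library was below every “Low” and “Medium” library, as in 8.06% of all rows. In “Low” against “High” edgeR called 0 of the 6 and 0.0518% of all rows, and the same 2 genes passed the unadjusted threshold, as did 4.27% of all rows. In “Medium” against “High” it called 0 of the 6 and 0.0129% of all rows, with the same 2 genes at the unadjusted threshold and 4.04% of all rows. Sox9 no longer passed that threshold in “Low” against “High” without the second “Low” library (log2 difference 0.65, unadjusted p = 0.0714 in edgeR), nor in “Medium” against “High” without the second “Medium” library (0.62, unadjusted p = 0.0995 in edgeR). Between “Low” and “Medium” edgeR called 0 of the 6 genes and 0% of all rows, no SOX gene passed the unadjusted threshold (0 of 6, with 1.51% of all rows, 117 rows), and DESeq2 called 0 SOX genes and 122 rows (1.57%). The fitted log2 differences against “High” were positive for all 6 genes in edgeR with each scaling tried, where 45.9% of all rows were in the TMM fit, with a median of 0.97 against -0.12 over all rows, or 1.09 against -0.17 after each library was raised to at least 3 counts. Sox4, Sox6, Sox8 and Sox11 had intervals that include 0, and each turned negative in a fit without 1 library, though Sox4 only to -4.33e-04. Because the genes were chosen with earlier results of these data known, their shares and median beside those of all rows do not test the set.

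By counts in these 3′ libraries, in which a transcript is read from its end alone, Sox9 stood above 98.5% of tested rows, Sox2 above 96.3% and Sox4 above 82.8%. Sox8, Sox6 and Sox11 stood above 65.2%, 41.3% and 21.2%. Sox9 exceeded Sox2 and Sox2 exceeded Sox4 in 6 of 6 libraries, Sox4 exceeded Sox8 in 5 of 6, and Sox6 exceeded Sox11 in 5 of 6. Sox8 and Sox6 had no steady order, with Sox8 higher in 3 of 6 libraries.

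The summed level of the SOX genes was 1052 ± 0.712 CPM on “High”, 1991 ± 297 on “Medium” and 2242 ± 283 on “Low” (SD, n = 2 each), most of it from Sox9 and Sox2. The SOXE sum was 639 ± 18.0, 1217 ± 366 and 1327 ± 459 CPM in the same order, and the SOXC sum 122 ± 48.8, 169 ± 39.8 and 165 ± 102 CPM. Sox9 made up 57.8% ± 1.82, 58.4% ± 6.83 and 53.3% ± 9.56 of the SOX counts on “High”, “Medium” and “Low”, and Sox2 25.4% ± 0.166, 29.4% ± 5.95 and 31.3% ± 4.66 (SD, n = 2 each). The ratio of Sox9 to Sox2 counts was 2.21 and 2.33 on “High”, 1.59 and 2.51 on “Medium” and 1.35 and 2.15 on “Low”. The ratio was higher in both “High” libraries than in both “Low” libraries, and the “Medium” libraries lay on either side of “High”. The share of Sox2 was 25.5% and 25.3% on “High”, 33.6% and 25.2% on “Medium” and 34.5% and 28.0% on “Low”, so it was lower on “High” than on “Low”, while “Medium” overlapped both. The shares of Sox9 overlapped between all 3 films. These shares are a description, since 2 libraries on each side allow an exact permutation p no smaller than 0.333.

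**Figure D4:**
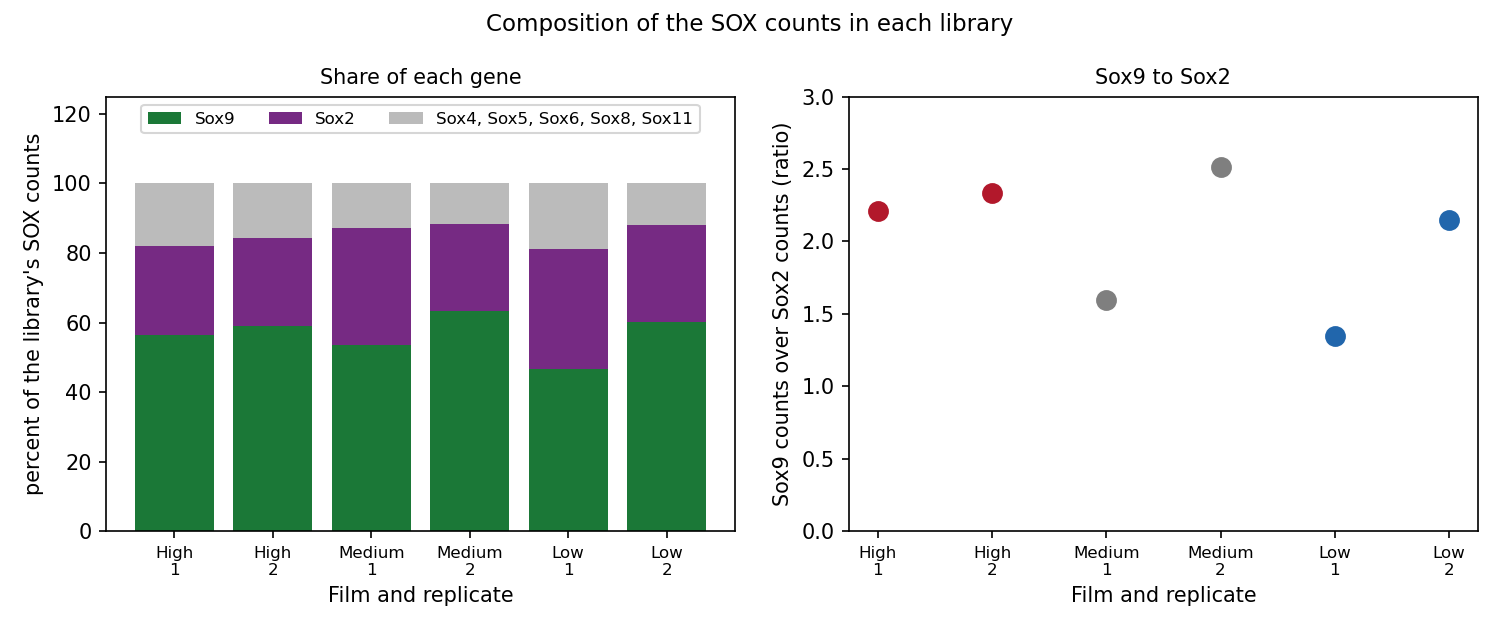
Share of Sox9, of Sox2 and of the other SOX genes pooled in the summed SOX counts of each library, in percent, as stacked bars from 0. A second panel shows the ratio of Sox9 to Sox2 counts in each library. Sox9 is the largest part of every bar and Sox2 the next, with 25.5% and 25.3% on “High” and 34.5% and 28.0% on “Low” for Sox2.

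Over the 6 libraries, the log2 CPM of Sox9 followed that of Sox2 with a Pearson r of 0.84, that of Sox4 with 0.31 and that of Sox8 with 0.19. Sox8 and Sox11 had an r of 0.70, and Sox4 and Sox8 one of -0.60. These are descriptions over 6 points that share films and library preparation. Among 3218 genes with a mean log2 CPM of at least 5, 73 (2.27%) had an r over 0.9 with Sox2. The rows most like it were Spon1 (r = 0.997), which encodes the extracellular matrix protein spondin 1, Ppil3 (0.995), a peptidyl-prolyl isomerase, both rows of the cytoskeletal actin gene Actg1 (0.993 and 0.991) and Olig2 (0.989). Spon1 was at 43.3 and 48.7 CPM on “High”, 255 and 203 on “Medium” and 329 and 281 on “Low”.

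SOX factors act with partner factors bound beside them. Of 9 partner factors listed, 6 were tested against “High”, 3 with a higher and 3 with a lower fitted value, 1 of them at the unadjusted threshold (5.50% of all rows) and 0 after adjustment by edgeR. That gene was Olig2, a factor of oligodendrocyte and motor neuron progenitors, read 835 and 751 times on “High”, 2016 and 1846 times on “Medium” and 2387 and 2309 times on “Low”. No “High” library overlapped the others, and the log2 difference was 0.97 (SE 0.34, unadjusted p = 0.0174, adjusted p = 0.778 in edgeR). Pou3f3, a POU factor of cortical progenitors, had a log2 difference of 0.78 (unadjusted p = 0.142 in edgeR). Pax6, a factor of radial glia, was read 151 and 0 times on “High”, 25 and 379 times on “Medium” and 455 and 43 times on “Low”, so the films overlapped. Pou3f1 was read 212 times in the second “High” library, 360 times in the first “Medium” library and 0 times in the other 4.

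Of 8 stem cell genes linked to SOXB1 factors, 4 were tested, 2 of them higher at the unadjusted threshold and 0 after adjustment by edgeR, where 5.50% and 0.129% of all rows passed in either direction. Nes, the intermediate filament nestin of neural progenitors, was read 450 and 344 times on “High”, 2380 and 1992 times on “Medium” and 1372 and 1232 times on “Low”. Unlike Sox2, its level was higher on “Medium” (368 ± 57.8 CPM) than on “Low” (203 ± 5.67), with 87.4 ± 7.53 on “High” (SD, n = 2 each). Its log2 difference of “Low” and “Medium” against “High” was 1.64 (SE 0.43, unadjusted p = 0.00318, adjusted p = 0.468 in edgeR), and that of “Low” against “Medium” was -0.86 (unadjusted p = 0.0894 in edgeR). Vim, the filament vimentin, differed by 0.58 (SE 0.20, unadjusted p = 0.0169, adjusted p = 0.778 in edgeR). The fitted values of Fabp7, a fatty acid binding protein of radial glia, and of the receptor gene Notch1 were -0.60 and -0.25, and neither passed the unadjusted threshold. Fabp7 was read 995 and 944 times on “High”, 1991 and 952 times on “Medium” and 292 and 706 times on “Low”. Both “Low” libraries lay below all others, with a log2 difference of -1.42 against “High” (unadjusted p = 0.0565 in edgeR) and -1.63 against “Medium” (unadjusted p = 0.0336, adjusted p = 1 in edgeR), opposite in sign to Sox2. Hes5, Nr2e1 and Shh were at 0 in all libraries.

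Of 9 neuronal genes linked to SOXC factors, 5 were tested and 0 passed the unadjusted threshold in edgeR (5.50% of all rows). Tubb3 and Map2 passed the filter on low counts through the “Low” libraries alone, so their direction was fixed by the filter. The 3 others, Elavl4, Gap43 and Tead2, had a higher fitted value (45.9% of all rows). Among the 5, Tubb3, a tubulin gene of neurons, was read 96 and 72 times on “Low” and 0 times elsewhere, so that its fitted value carries no usable error. A median over the 5 would rest in part on Tubb3 and Map2, so none is given. Tead2 was read 0 and 65 times on “High”, 30 and 200 times on “Medium” and 0 and 186 times on “Low”. Its log2 difference was 1.15 (unadjusted p = 0.753 in edgeR). Among the genes not tested, Stmn2 and Elavl3 were read 60 and 100 times in the first “High” library and 0 times elsewhere. Dcx was read 85 times in the second “Low” library and at most 1 time in any other, and Neurod1 was at 0 in all libraries. Elavl4, an RNA-binding protein of neurons, was read 230 and 54 times on “High”, 615 and 751 times on “Medium” and 811 and 233 times on “Low” (log2 difference 1.65, unadjusted p = 0.156 in edgeR). Gap43, a growth cone protein, was read 277 and 77 times on “High”, 157 and 889 times on “Medium” and 1157 and 658 times on “Low” (1.54, unadjusted p = 0.161 in edgeR). Both genes overlapped between “High” and another film. Map2, which encodes a microtubule protein of dendrites, was read 138 and 20 times on “Low”, 0 and 6 times on “Medium” and 0 times on “High”.

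Of 12 glial genes linked to SOXD and SOXE factors, 5 were tested, 2 with a higher and 3 with a lower fitted value. In edgeR 0 passed the unadjusted threshold. Of all rows, 45.9% had a higher fitted value and 5.50% passed that threshold in either direction. Slc1a3, the glutamate transporter of radial glia and astrocytes, was read 671 and 485 times on “High”, 1315 and 1057 times on “Medium” and 1375 and 1949 times on “Low”. All 4 of the latter lay above “High” (log2 difference 0.85, unadjusted p = 0.0940 in edgeR). Cspg4, a proteoglycan of oligodendrocyte progenitors, was read 236 times in the second “High” library, 50 times in the second “Medium” library and 0 times elsewhere. Mmd2 was read 134 and 69 times on “High”, 0 times on “Medium” and 0 and 119 times on “Low”. As for the neuronal list, no median is given, since the median log2 difference of the glial list lay below 0 on a gene with a film at 0.

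**Figure D5:**
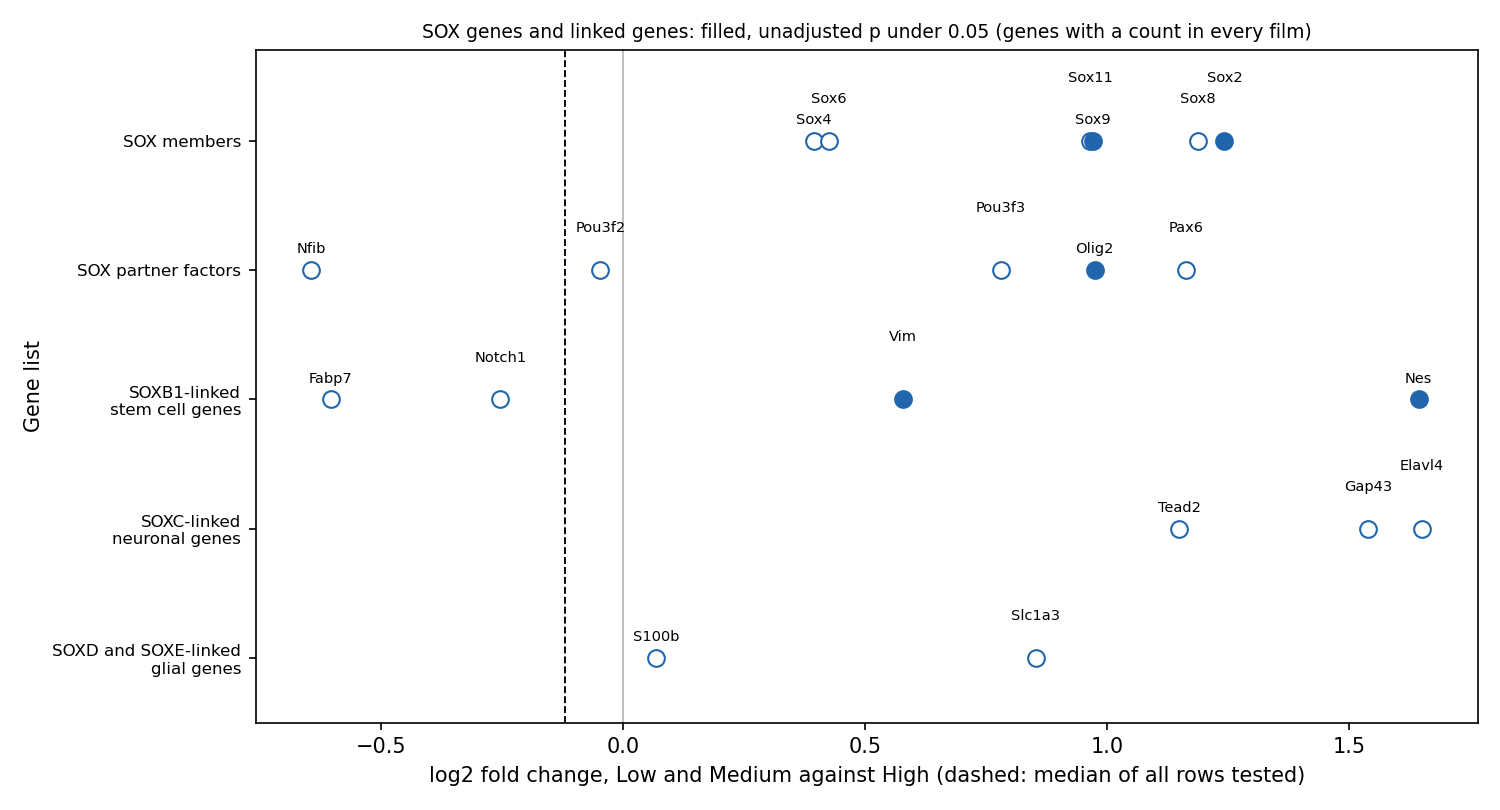
Log2 fold change of “Low” and “Medium” against “High” for the SOX genes and 4 lists of linked genes, for genes with more than 3 counts in a library of every film, filled where the unadjusted p was under 0.05 in edgeR. The filled points are Sox2, Sox9, Olig2, Vim and Nes, all to the right of the dashed median of all rows at -0.12.

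Of 9 further SOX genes listed, 7 had a row, 3 had a count and 2 were tested. In edgeR 0 passed the unadjusted or the adjusted threshold, as 5.50% and 0.129% of all rows did. Sox13, a SOXD gene, was read 99 and 9 times on “High”, 155 and 85 times on “Medium” and 341 and 319 times on “Low” (log2 difference 1.52, unadjusted p = 0.509 in edgeR). Sox15 was read 335 and 324 times on “High”, 179 and 522 times on “Medium” and 1232 and 440 times on “Low”, with a log2 difference of 0.23. Sox7, Sox14, Sox17 and Sox18, of which Sox7, Sox17 and Sox18 are SOXF factors of endothelial cells, were at 0 in all libraries.

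Markers of other cells and of the cell cycle were set beside Sox2 and Sox9. The summed level of 5 astrocyte markers was 68.0 to 157 CPM on “High”, 77.2 to 176 on “Medium” and 122 to 166 on “Low”, with Aqp4 and Aldh1l1 at 0. That of 4 cycling cell markers was 463 to 498, 338 to 419 and 291 to 539 CPM in the same order. Neural crest and Schwann markers were at 0 CPM on “High” and “Low” and reached 33.8 CPM on “Medium”, all of it Tfap2a in the first library. Meningeal and vascular markers reached 35.8, 338 and 0.168 CPM on “High”, “Medium” and “Low”. Of the 338 CPM, 329 came from Col1a1 in the second “Medium” library, while the first “Medium” library was at 0. Of the marker sums given, that of the NSPC markers alone was lower in both “High” libraries than in the 4 others, as Sox2 and Sox9 were. Most of that sum was Vim, and Fabp7, also in it, was lowest on “Low”. The part of NSPC markers and of ribosomal RNA in the levels of Sox2 and Sox9 was not tested.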

How the data were processed

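RNA of 6 libraries was sequenced from the 3′ end with QuantSeq. Per the labels and the methods, the authors used Bowtie2 for alignment and bedtools for counting, with both unique and multiple alignments kept, and deposited whole-number counts, 1 table a library, in rn6 by the submitters' notes. Near-identical genes may therefore share counts, and without molecular identifiers counts are not independent molecules. Intervals and floors of 3 counts cover counting error only. RNA was isolated with Trizol by the labels and with a Ribospin kit by the methods. The files held 0 columns of other samples.

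Libraries were grouped by their titles. Rows were filtered with filterByExpr, scaled by TMM and tested with edgeR 4.0.16 (R 4.3.3), by the quasi-likelihood test with Benjamini-Hochberg adjustment over 7729 rows and a threshold of 0.05. All 6 libraries entered 1 fit of 3 group means, with 3 residual and 6.96 prior degrees of freedom and a biological coefficient of variation of 1.43. The 4 comparisons were “Low” and “Medium” against “High”, each alone against “High”, and “Low” against “Medium”. Alternatives were DESeq2 1.42.0, limma-voom (limma 3.58.1), other scalings and filters, fits of the compared groups alone, a replicate block, and leaving out each library. DESeq2 and the fits without 1 library were also run on the same 7729 rows, as alternatives chosen after seeing the data. The fit was tested on simulated data.

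The members and lists were chosen with earlier results of these data known. All 8 SOX genes with a row are described. From each other list up to 4 genes with the smallest unadjusted p were named, plus Nes and Pax6. Tubb3 and the untested genes Stmn2, Elavl3, Dcx, Neurod1 and Tfap2a were added after their values were seen. Genes with a film at 0 (such as Map2 and Cspg4) are given as counts, with no fold. The values of 1 gene of the lists are not reported here. Correlations used log2 CPM with a prior count of 2. Promoters were taken from RefSeq (GRCr8), in which 5 of the 10 members had one, and both strands were searched.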

Additional observations from a re-analysis of the deposited data

How the results depend on the processing

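The direction of Sox2 and Sox9 against “High” was the same under every alternative run, and over the 24 results of a SOX gene in a comparison, 466 of 522 settings kept direction and side of the threshold, 15 gained a call and 41 changed sign. Called SOX genes in “Low” and “Medium” against “High” numbered 0, but 1 without a filter, 2 with DESeq2 and 0 to 1 when a library was left out. DESeq2 called 2 in “Low” and 2 in “Medium” against “High”. On the rows of the edgeR fit, DESeq2 still called 2 in each of these comparisons, and leaving out a library gave 0. Called rows in “Low” and “Medium” against “High” numbered 10, but 68 without a filter, 56 with a mean of 10 counts, 370 with DESeq2, 23 with limma-voom and 0 to 242 when a library was left out (242 without the second “Medium” library). In “Low” against “High” they numbered 4, but 0 with total counts alone or only the groups compared, 2 without ribosomal RNA rows, 34 without a filter, 30 with a mean of 10 counts, 272 with DESeq2, 16 with limma-voom and 0 to 65 when a library was left out. In “Medium” against “High” they numbered 1, but 0 with total counts alone or only the groups compared, 48, 40, 300 and 14 with no filter, a mean of 10 counts, DESeq2 and limma-voom, and 0 to 275 when a library was left out (275 without the second “Medium” library). Between “Low” and “Medium” they numbered 0, but 5 without a filter, 122 with DESeq2 and 0 to 194 when a library was left out. On the rows of the edgeR fit, DESeq2 called 375, 300, 307 and 116 rows in the same order, while fits without a library called 0 to 4, so the larger counts without a library came with the 8678 to 8959 rows that the filter then kept. The cause of the other shifts was not tested.

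Libraries with the same replicate number shared no visible deviation between films, with correlations of deviations of 0.00552, 1.54e-04 and 0.0140. These cannot show whether libraries were prepared in pairs, since the numbers may not follow such pairs. With a replicate block the called rows numbered 57, 30 and 39 in “Low” and “Medium”, “Low” and “Medium” alone against “High”, and Sox8 in “Medium” against “High” turned to -0.65.

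The log2 ratio of “Low” and “Medium” to “High” in the SOXB1 sum was 1.25, against 1.65 with total counts alone and 1.20 to 1.30 when a library was left out, and that of SOXE was 0.99, against 1.38 with total counts alone. Without a library, that of SOXC (0.46) ran from 0.09 to 0.94 and that of SOXD (0.87) from -0.13 to 1.15. The SOXD ratio gave no value without the second “High” library. With limma-voom, Sox8 turned to -0.68 and Sox11 to -0.13 in “Medium” against “High”, and Sox9 to -0.00829 between “Low” and “Medium”. When a library was left out, the log2 difference of “Low” and “Medium” ran from -4.33e-04 to 0.79 for Sox4, -0.58 to 10.54 for Sox6, -0.52 to 1.65 for Sox8 and -3.30 to 9.35 for Sox11. That of “Low” ran from -0.49 to 0.81 for Sox4 and -0.63 to 10.65 for Sox6, and that of “Medium” from -0.69 to 10.43 for Sox6, -2.92 to 1.41 for Sox8 and -8.33 to 8.60 for Sox11. Between “Low” and “Medium” it ran from -0.98 to 0.32 for Sox4, -0.95 to 0.85 for Sox6 and -0.30 to 0.36 for Sox9. Values near 10 come from a film left at 0. The wide intervals of Sox4, Sox6, Sox8 and Sox11 limit what can be said of them.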
